A study of Homo sapiens with 15 samples.

Results

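The collagen chain genes are the genes whose symbols read COL, a type number, A and a chain number, and 44 such genes were found among the 59608 genes of the table. Of these 44, 21 averaged 10 normalized counts or more across the 15 libraries and were tested, and 23 lay below that level. The cells were MDA-MB-231, an established human line from a triple-negative breast carcinoma, grown flat in 2D culture. They received 0.1% DMSO alone, or ZJ-101 at 0.5, 5, 50 or 500 nM, for 6 h, ZJ-101 being a synthetic molecule simplified from superstolide A, which comes from a marine sponge. Each of the 5 groups had 3 libraries of poly-A RNA, which the labels call biological replicates for ZJ-101 and merely numbered replicates for DMSO. All cells were of this 1 line. Per the study's methods the set had 3 biological replicates, and how these were kept separate is not described. Where separate cultures are not named, the p-values measure a spread between libraries that may be technical. The question was which of the chains that build the extracellular matrix these cells transcribe, and how their RNA levels changed with the dose. A normalized count is a gene's read count divided by a size factor of its library, and all levels below are on that scale unless a length scale is named.

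Collagens are proteins of the extracellular matrix in which 3 chains wind into a triple helix, and a collagen type is named by the chains it is built from. Fibrillar collagens assemble into fibrils that carry tension, network collagens form the sheets of basement membranes and related matrices, and the other types decorate fibrils, anchor basement membranes, form beaded filaments or span the cell membrane. The chains are translated into the endoplasmic reticulum, hydroxylated and folded there, and secreted through the Golgi. Breast cancer cells of the mesenchymal-like kind make a part of their own matrix, whereas most interstitial collagen of a tumour comes from fibroblasts.

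The expressed chains came from each of the classes. Of 11 fibrillar chains 4 were expressed, namely COL5A1, COL27A1, COL1A1 and COL5A2. Of 9 network chains 6 were expressed, namely the type IV chains COL4A1, COL4A2, COL4A4, COL4A5 and COL4A6 and the type VIII chain COL8A1. Of the 24 chains of other types 11 were expressed, namely COL6A1, COL6A2 and COL6A3 of the beaded filaments, COL7A1 of the anchoring fibrils, COL9A2, COL12A1 and COL16A1 of the fibril-associated group, COL13A1 and COL17A1 of the transmembrane group, and the multiplexins COL15A1 and COL18A1, whose cores are interrupted by many non-helical stretches.

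COL1A1, the main chain of type I collagen, was expressed, whereas its partner and the chain of type III collagen were nearly absent. COL1A2, which pairs with COL1A1 in type I collagen, had 46 reads in all 15 libraries together, and COL3A1, which forms type III collagen, had 14. The other fibrillar chains below the threshold were COL2A1, COL5A3, COL11A1, COL11A2 and COL24A1. Below it were also the network chains COL4A3, COL8A2 and COL10A1, and the chains COL6A5, COL6A6, COL9A1, COL9A3, COL14A1, COL19A1, COL20A1, COL21A1, COL22A1, COL23A1, COL25A1, COL26A1 and COL28A1 of other types. Of the 23, 5 had no read in any library, namely COL9A1, COL11A2, COL22A1, COL23A1 and COL26A1, and 0 of 204028093 reads allows a share of up to 1.47e-06% of reads, for counting error only. The members just inside the threshold were COL15A1, COL5A2 and COL4A6, with means of 24.1, 12.3 and 10.7, and those just outside were COL9A3, COL21A1 and COL8A2, with means of 5.03, 3.71 and 3.09.

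Levels were divided by the kilobases of merged exons, which pool the exons of all annotated transcripts of a gene. Which transcripts the cells made was not measured, so the order of the chains depends on these annotated lengths. On this scale COL13A1 was the highest chain in DMSO at 429 ± 4.98 normalized counts per kilobase (SD, n = 3), followed by COL6A1 at 366 ± 7.90. COL5A1, COL18A1, COL4A2 and COL7A1 followed with 254 ± 3.76, 243 ± 3.83, 222 ± 1.91 and 215 ± 16.6, of which COL4A2 lay within the spread of COL7A1. COL4A1 and COL12A1 had 134 ± 1.35 and 123 ± 2.80 per kilobase. The partner chains of several types were far from equal. The type V chain COL5A2 stood at 1.28 ± 0.576 per kilobase beside 254 for COL5A1. COL6A2 stood at 54.0 ± 6.42 and COL6A3 at 3.04 ± 0.412, beside 366 for COL6A1, although the 3 chains form 1 type VI molecule. The counts were also concentrated in few genes, since the 5 chains with the highest counts took 66.3% to 69.8% of all collagen counts in a library and the top 8 took 91.1% to 92.4%.

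**Figure D1:**
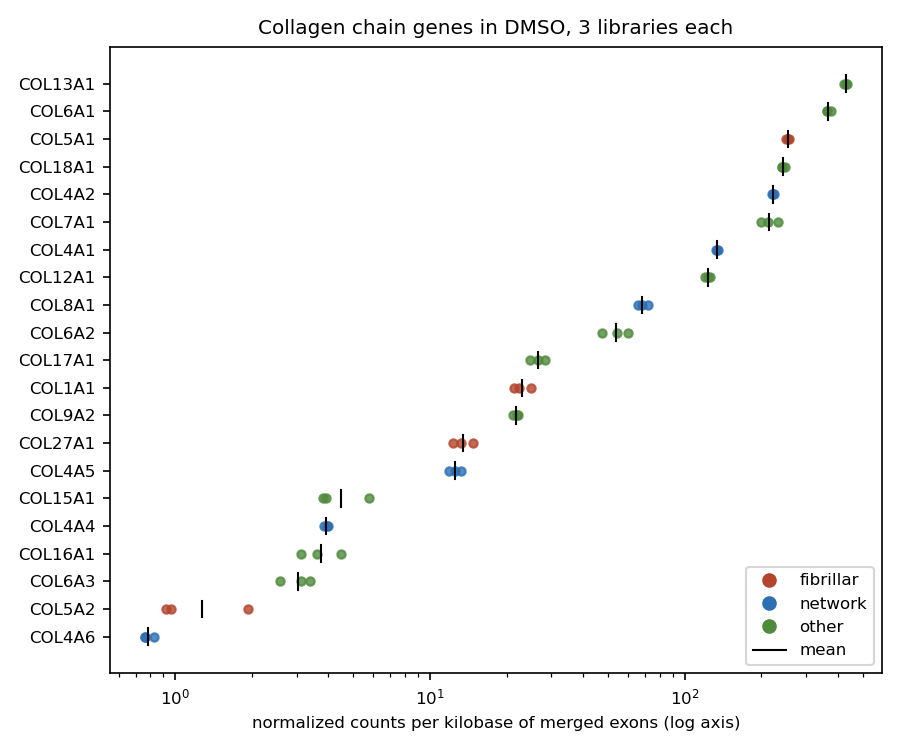
Normalized counts per kilobase of merged exons (log axis) of the 21 expressed collagen chain genes in the 3 DMSO libraries, with points for libraries, a black bar for the mean and colours for the fibrillar, network and other classes. The levels span from COL4A6 at 0.785 to COL13A1 at 429, and chains of 1 type, such as COL5A1 and COL5A2, lie far apart.

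The promoters of 4 chains are shown because the first pair is transcribed from a shared stretch and the other pair had the largest well-counted falls. COL4A1 and COL4A2, the chains of the most common type IV collagen, stand head to head on chromosome 13, with RefSeq starts 127 bases apart. Each sequence runs 5′ to 3′ from 250 bases before the start to 50 bases after it, from RefSeq on build GRCh38.p14, with CCAAT boxes (CCAAT or its complement) and GC boxes (GGGCGG or its complement) in capitals. COL4A1 is at chr13:110307108-110307407, minus strand, COL4A2 at chr13:110307034-110307333, plus strand, COL5A1 at chr9:134641553-134641852, plus strand and COL13A1 at chr10:69801656-69801955, plus strand.
COL4A1: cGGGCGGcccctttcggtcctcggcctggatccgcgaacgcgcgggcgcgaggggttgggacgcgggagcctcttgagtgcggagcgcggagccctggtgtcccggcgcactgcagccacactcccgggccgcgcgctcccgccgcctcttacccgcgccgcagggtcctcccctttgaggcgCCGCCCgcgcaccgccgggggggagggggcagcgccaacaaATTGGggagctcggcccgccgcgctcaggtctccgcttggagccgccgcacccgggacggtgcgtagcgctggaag
COL4A2: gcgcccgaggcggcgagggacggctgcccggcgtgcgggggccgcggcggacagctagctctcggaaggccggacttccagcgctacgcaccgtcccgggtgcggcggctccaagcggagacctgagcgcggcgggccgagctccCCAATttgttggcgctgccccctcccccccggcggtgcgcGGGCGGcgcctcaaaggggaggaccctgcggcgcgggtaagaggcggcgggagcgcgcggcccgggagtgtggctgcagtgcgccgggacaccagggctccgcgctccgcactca
COL5A1: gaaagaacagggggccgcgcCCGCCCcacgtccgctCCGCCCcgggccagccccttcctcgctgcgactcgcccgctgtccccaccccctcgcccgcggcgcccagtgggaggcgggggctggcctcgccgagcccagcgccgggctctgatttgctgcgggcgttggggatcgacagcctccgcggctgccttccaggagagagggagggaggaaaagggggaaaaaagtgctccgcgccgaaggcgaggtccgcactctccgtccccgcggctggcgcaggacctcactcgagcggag
COL13A1: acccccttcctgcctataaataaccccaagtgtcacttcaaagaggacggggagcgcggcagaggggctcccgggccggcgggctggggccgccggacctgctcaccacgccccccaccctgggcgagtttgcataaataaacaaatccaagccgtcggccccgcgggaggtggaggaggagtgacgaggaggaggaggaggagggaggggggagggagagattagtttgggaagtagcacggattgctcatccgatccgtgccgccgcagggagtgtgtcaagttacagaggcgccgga

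The windows of COL4A1 and COL4A2 share 226 bases, read from opposite strands. Their CCAAT box is the same one, at chr13:110307179-110307183, and so is 1 GC box, at chr13:110307219-110307224. COL5A1 has 2 GC boxes and COL13A1 has neither motif, but 1 TATAAA. Windows were found for 32 of the 44 members and for 17 of the 21 expressed ones, and not for COL1A1, COL5A2, COL6A1 and COL8A1. A gene with several windows was counted once, as holding a motif if any of its windows held it, among the members and among all 27305 genes with a window. On either strand, CCAAT stood in 5 of the 17 and in 39.7% of all genes, GGGCGG in 12 of the 17 and in 48.3% of all, and TATAAA in 5 of the 17 and in 14.0% of all. The 17 were filtered on expression and the 27305 genes were not, so the 2 sets are not alike. Of the 5 members with CCAAT, 4 were COL4A1, COL4A2, COL4A5 and COL4A6, and these are no independent cases, since the windows of COL4A5 and COL4A6 also overlap, by 121 bases that hold 2 shared CCAAT boxes. The endoplasmic reticulum stress response element, whose first letters are a CCAAT box, stood in 0 of the 17 and in 0.0916% of all. These matches describe letters and show no binding.

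One library stood apart from its group, namely replicate 2 of 0.5 nM. Chi-square over its degrees of freedom across all genes was 10.2 and 15.1 against the other libraries at 0.5 nM, and at most 5.81 for any other pair of replicates.

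At 500 nM, 11 of the 21 expressed chains fell and 1 rose. The largest falls among the chains with high counts were those of COL5A1, COL13A1, COL8A1 and COL6A1, to between 48.0% and 61.1% of their DMSO means. Among all 13561 genes tested, 10.1% fell and 7.69% rose at this dose. All 3 libraries at 500 nM lay below all 3 DMSO libraries in 11 chains, against 19.6% of all genes, and above them in 3 chains, against 18.9%. The median log2 fold change of the 21 chains was -0.20 and that of all genes 0.0027. In bulk RNA, fewer cells that make a transcript and less of it per cell cannot be told apart.

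Fewer chains were called at the lower doses. At 0.5 nM 0 chains rose and 4 fell, namely COL5A1, COL4A1, COL4A2 and COL18A1, where 0.251% of all genes rose and 0.922% fell. At 5 nM 0 rose and 2 fell, namely COL4A1 and COL18A1, where 0.465% of all genes rose and 1.71% fell. At 50 nM 0 rose and 4 fell, namely COL13A1, COL5A1, COL6A1 and COL8A1, where 2.29% of all genes rose and 3.71% fell. The medians of the 21 chains at these 3 doses were -0.048, -0.082 and -0.11 on the log2 scale, beside -0.0069, -0.00028 and -0.0023 for all genes. All doses were compared with the same 3 DMSO libraries, so that the comparisons are not independent of each other. All libraries lay below DMSO in 7, 6 and 9 chains at 0.5, 5 and 50 nM, where this held for 10.7%, 12.7% and 13.2% of all genes, and above DMSO in 1, 3 and 2 chains, where it held for 7.43%, 10.5% and 11.6%. The 0 rises at these 3 doses by limma were also 0 by edgeR and by DESeq2, and 1, 2 and 3 chains were higher with an unadjusted p under 0.05 in limma. Some alternatives did call rises, at 5 nM COL17A1 in 4 and COL12A1 in 1, and at 50 nM COL7A1 in 3. Called at any dose were 12 chains, and 9 expressed chains were called at none.

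**Figure D2:**
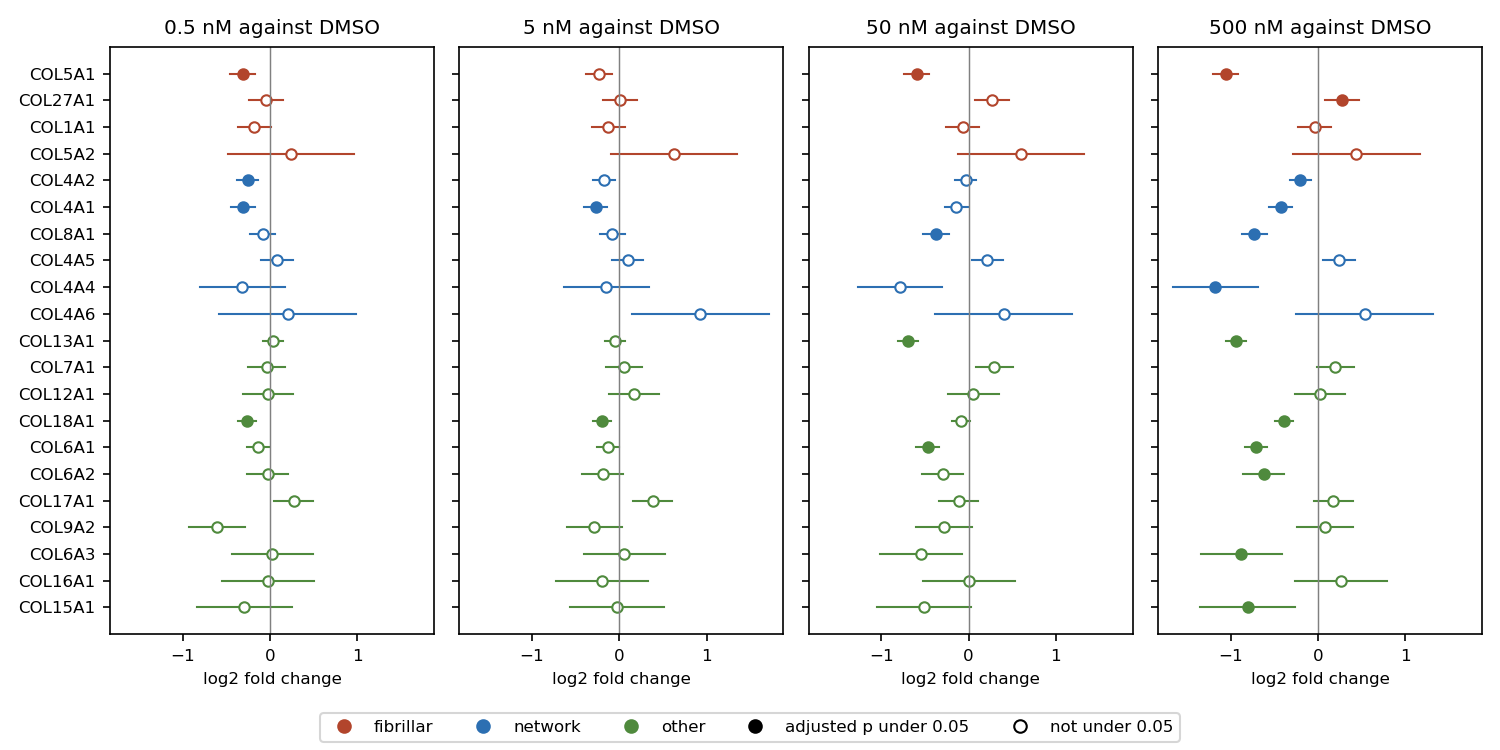
Log2 fold change against DMSO (x axis) of the 21 expressed collagen chain genes at each of the 4 doses, with the 95% interval of the limma fit, colours for class and filled points for an adjusted p under 0.05. Filled points lie left of 0 at every dose apart from COL27A1 at 500 nM, at 0.28.

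The low doses rested on small differences. In edgeR's quasi-likelihood test 3 chains were called at 0.5 nM, and limma called 0 when DMSO replicate 1, 2 or 3 was left out. The calls among all genes shrank with them, from 34 up and 125 down at 0.5 nM to 7 and 12, 9 and 22, and 9 and 30 without DMSO replicates 1, 2 and 3, and from 63 up and 232 down at 5 nM to 25 and 88, 28 and 103, and 30 and 117. Leaving out 0.5 nM replicate 1 gave 1 chain, and leaving out 0.5 nM replicate 2, the library that stood apart, gave 2, COL4A1 and COL18A1. Among all genes 25 rose and 63 fell without replicate 1, and 47 rose and 107 fell without replicate 2. Without that library the 0.5 nM change of COL5A1 was -0.21 in place of -0.31 and that of COL4A2 -0.17 in place of -0.26. At 5 nM limma called 0 without DMSO replicate 1, 2 or 3 or without 5 nM replicate 1 or 2. The call at 5 nM was 1 chain without 0.5 nM replicate 1, without 50 nM replicate 3 or without 500 nM replicate 1, 2 or 3, and it was 5 and 4 chains without 0.5 nM replicates 2 and 3, of which 1 each was a rise. Without 5 nM replicates 1 and 2 all genes gave 35 up and 106 down, and 24 and 97. Without 0.5 nM replicates 2 and 3 they gave 198 up and 425 down, and 82 and 275. DESeq2 called 3 at 5 nM, COL5A1 among them. The fibroblast marker PDGFRB moved with these doses, at 68.6% of its DMSO mean at both 0.5 and 5 nM, and the fibroblast list summed to 60.5 to 66.8 counts in DMSO, 31.0 to 52.8 at 0.5 nM and 37.4 to 49.2 at 5 nM. Its other 5 markers averaged under 3 counts, and the part of this shift in the results was not tested.

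Among the fibrillar chains, COL5A1 was the one that fell. COL5A1 (ENSG00000130635, chr9:134641803-134844843, plus strand, GENCODE 44 on GRCh38) encodes the main chain of type V collagen, which starts and limits the width of type I fibrils. Its normalized counts were 2874, 2848 and 2792 in DMSO, 2327, 1987 and 2573 at 0.5 nM, 2307, 2333 and 2609 at 5 nM, 1890.0, 1919 and 1832 at 50 nM and 1386, 1328 and 1372 at 500 nM. The libraries at every dose lay below all DMSO libraries, and those at 50 nM and at 500 nM each lay below all libraries of the lower doses. The log2 fold change was -0.31 ± 0.069 (SE) at 0.5 nM (adjusted p = 0.0309 by limma with Benjamini-Hochberg adjustment, as for all adjusted p below), -0.23 ± 0.069 at 5 nM (adjusted p = 0.0920), -0.59 ± 0.069 at 50 nM (adjusted p = 1.06e-05) and -1.06 ± 0.069 at 500 nM (adjusted p = 2.08e-09). The gene stood at 48.0% of its DMSO mean at the highest dose, and both the step from 5 to 50 nM (-0.36) and that from 50 to 500 nM (-0.46) were falls of their own (adjusted p = 0.00333 and adjusted p = 0.000726). The call at 0.5 nM was lost with library 1, 2 or 3 of DMSO or library 1 or 2 of 0.5 nM left out (adjusted p from 0.0548 to 0.143). It was also lost when only the libraries compared were fitted (adjusted p = 0.247). At 5 nM the fall was called in DESeq2 (adjusted p = 0.0365) and in 3 limma alternatives.

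COL27A1 (ENSG00000196739, chr9:114155537-114312511, plus strand), a fibrillar chain of cartilage and some epithelia, went the other way from a low level. Its counts were 185, 173 and 207 in DMSO, 182, 187 and 176 at 0.5 nM, 169, 193 and 207 at 5 nM, 216, 218 and 246 at 50 nM and 230.3, 236 and 218 at 500 nM. All libraries at 50 and 500 nM lay above all DMSO libraries, with a gap between the groups that was smaller than the range of the DMSO libraries. The change at 500 nM was 0.28 ± 0.093 (SE, adjusted p = 0.0472), and the slope over dose ranks was 0.087 ± 0.022 per step (adjusted p = 0.00944). The call at 500 nM was lost in edgeR and DESeq2 (adjusted p = 0.0501 and 0.100) and with library 1 or 2 of DMSO, library 1 of 0.5 nM, library 2 of 5 nM, library 1 or 2 of 50 nM or library 1, 2 or 3 of 500 nM left out (adjusted p from 0.0517 to 0.198). It was lost with no filter on the mean as well (adjusted p = 0.0806).

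COL1A1 and COL5A2 were not called at any dose. COL1A1 had 207 ± 16.0 normalized counts in DMSO and 201 ± 14.1 at 500 nM (SD, n = 3), with a log2 difference of -0.038 and a 95% interval of -0.23 to 0.15. COL5A2, the second type V chain, had 9.34 ± 4.22 in DMSO and 12.5 ± 2.22 at 500 nM, with an interval of -0.29 to 1.17 on the log2 scale. The interval of COL5A2 is wide and holds falls and rises alike.

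Among the network chains, the 2 chains of the common type IV collagen were lower at the lowest dose, closer to DMSO at 50 nM and lower again at 500 nM. COL4A1 (ENSG00000187498, chr13:110148963-110307157, minus strand) had counts of 1942, 1982 and 1963 in DMSO, 1578, 1434 and 1749 at 0.5 nM, 1647, 1516 and 1723 at 5 nM, 1815, 1817 and 1707 at 50 nM and 1554, 1414 and 1411 at 500 nM. COL4A2 (ENSG00000134871, chr13:110305812-110513209, plus strand) had counts of 4292, 4242 and 4314 in DMSO, 3673, 3205 and 3918 at 0.5 nM, 3878, 3583 and 3929 at 5 nM, 4131, 4283 and 4139 at 50 nM and 3908, 3634 and 3647 at 500 nM. For COL4A1 every library at every dose lay below every DMSO library, and for COL4A2 this held at 0.5, 5 and 500 nM, whereas at 50 nM the groups overlapped.

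COL4A1 fell at 0.5 nM (-0.31 ± 0.064, adjusted p = 0.0231), at 5 nM (-0.27 ± 0.064, adjusted p = 0.0318) and at 500 nM (-0.43 ± 0.064, adjusted p = 9.00e-05), and its difference at 50 nM was -0.14 ± 0.064 (adjusted p = 0.255). COL4A2 fell at 0.5 nM (-0.26 ± 0.059, adjusted p = 0.0399) and at 500 nM (-0.20 ± 0.059, adjusted p = 0.0219), with -0.17 ± 0.059 at 5 nM (adjusted p = 0.153) and -0.034 ± 0.059 at 50 nM (adjusted p = 0.848). Its 5 nM fall was called without 0.5 nM replicate 2 (adjusted p = 0.0177) and with only the libraries compared (adjusted p = 0.0101). With only the libraries compared, the 50 nM fall of COL4A1 was called too (adjusted p = 0.0499). The difference from 5 to 50 nM was 0.13 for COL4A1 and 0.14 for COL4A2, and neither passed the test (adjusted p = 0.311 and adjusted p = 0.206), although that of COL4A2 did without 0.5 nM replicate 2 (adjusted p = 0.0373). The nearer level at 50 nM is a description of the means. For COL4A1 the call at 0.5 nM was lost with library 1, 2 or 3 of DMSO or library 1 of 0.5 nM left out (adjusted p from 0.0656 to 0.107) and that at 5 nM with library 1, 2 or 3 of DMSO or library 1 or 2 of 5 nM left out (adjusted p from 0.0898 to 0.190). Its 0.5 nM call was also lost when only the libraries compared were fitted (adjusted p = 0.168). Its 5 nM call was also lost with no filter on the mean (adjusted p = 0.0541). For COL4A2 the call at 0.5 nM was lost in edgeR and with library 1, 2 or 3 of DMSO, library 1 or 2 of 0.5 nM, library 1 or 3 of 5 nM, library 1 or 3 of 50 nM or library 2 or 3 of 500 nM left out (adjusted p from 0.0502 to 0.152), and that at 500 nM with library 1, 2 or 3 of DMSO or library 2 or 3 of 500 nM left out (adjusted p from 0.0546 to 0.0872). Its 0.5 nM call was also lost with no filter and with only the libraries compared (adjusted p = 0.0660 and 0.258).

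The ratio of COL4A1 to COL4A2 was one of the tightest measures. It was 0.458 ± 0.00784 in DMSO and 0.441 ± 0.00994, 0.429 ± 0.00853, 0.425 ± 0.0134 and 0.391 ± 0.0057 at 0.5, 5, 50 and 500 nM (SD, n = 3). The ratio at each dose lay below that in DMSO without overlap. The log2 difference at 500 nM was -0.23, with an exact two-sided permutation test giving p = 0.1, the smallest that 3 libraries against 3 allow, and 0.25 after adjustment over the 5 ratios computed. Over the 15 libraries the log2 ratio had an SD of 0.082, beside 0.17 for COL4A1 and 0.12 for COL4A2 alone.

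**Figure D3:**
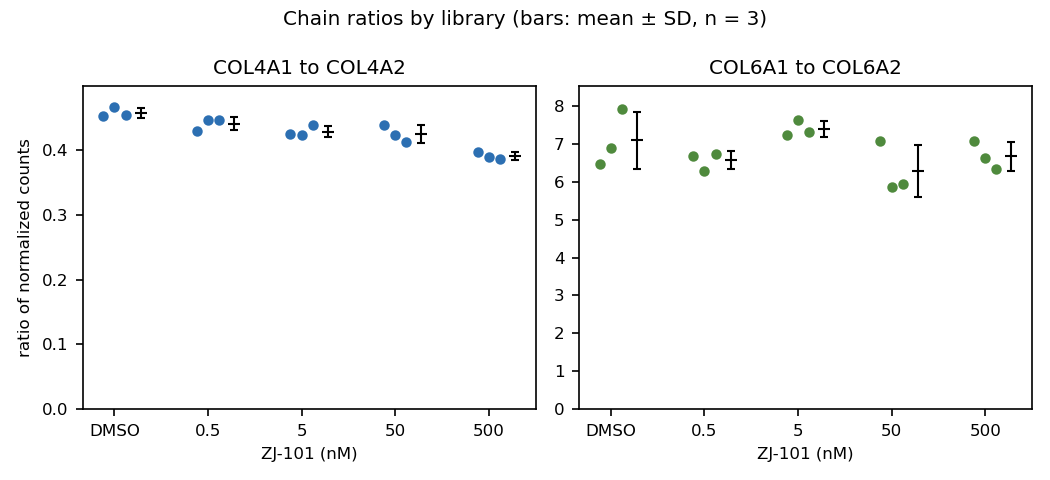
Ratio of normalized counts (y axis, from 0) of COL4A1 to COL4A2 and of COL6A1 to COL6A2 in each library by dose, with bars for the mean and SD of 3 libraries. The type IV ratio went from 0.458 in DMSO to 0.391 at 500 nM with no overlap, and the type VI ratio lay between 5.86 and 7.93 in all libraries.

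COL8A1 (ENSG00000144810, chr3:99638475-99799226, plus strand), a short chain whose protein forms the hexagonal lattice of subendothelial matrices, had counts of 616, 638 and 673 in DMSO, 644, 606 and 569.8 at 0.5 nM, 604, 603 and 613 at 5 nM, 464, 512 and 511 at 50 nM and 426, 376 and 360.3 at 500 nM. The libraries at 5, 50 and 500 nM lay below all DMSO libraries, those at 5 nM narrowly, and those at 500 nM lay below all at 50 nM. It fell at 50 nM (-0.37 ± 0.069, adjusted p = 0.00163) and further at 500 nM (-0.73 ± 0.069, adjusted p = 3.19e-07), to 60.3% of DMSO. The step from 50 to 500 nM was -0.36 (adjusted p = 0.00750). This call was lost without 500 nM replicate 3 or 50 nM replicate 2 (adjusted p = 0.0592 and 0.0507).

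COL4A4 (ENSG00000081052, chr2:227002714-227164453, minus strand), a chain of the type IV collagen of the glomerular basement membrane, had the largest fold decrease of the 21 tested chains, at a low level. Its counts were 47.1, 45.5 and 46.7 in DMSO, 44.3, 26.0 and 44.0 at 0.5 nM, 48.3, 33.9 and 44.3 at 5 nM, 29.0, 25.1 and 25.5 at 50 nM and 23.4, 14.2 and 23.8 at 500 nM. The libraries at 0.5, 50 and 500 nM lay below all libraries of DMSO, though those at 0.5 nM were spread from 26.0 to 44.3. It fell at 500 nM by 1.18 on the log2 scale, with an SE of 0.23 (adjusted p = 0.00126), and its difference at 50 nM was -0.79 ± 0.23 (adjusted p = 0.0525), which was called in 7 alternatives, among them edgeR (adjusted p = 0.0438). Its partner chain COL4A3, whose start lies 171 bases away on the opposite strand, had 26 reads in all libraries together.

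The X-linked pair COL4A5 and COL4A6, chains of the basement membranes of kidney and smooth muscle, passed no test against DMSO among the 13561 genes. COL4A5 (ENSG00000188153, chrX:108439838-108697545, plus strand) had counts of 149, 157 and 141 in DMSO, 151, 157 and 164 at 0.5 nM, 171, 156 and 151 at 5 nM, 176, 177 and 165 at 50 nM and 176, 183 and 169 at 500 nM. All libraries at 50 and 500 nM lay above those of DMSO. It was called only by the slope, at 0.061 ± 0.018 per dose step (adjusted p = 0.0222), and its difference at 500 nM was 0.24 ± 0.085 (adjusted p = 0.0606), a rise that was called with the filter at a mean of 50 (adjusted p = 0.0480). The slope call was lost in DESeq2 and with library 3 of DMSO or library 2 of 500 nM left out (adjusted p from 0.0629 to 0.0677). It was also lost when all DMSO libraries were left out (adjusted p = 0.138). COL4A6 had 7.29 ± 0.344 counts in DMSO and 11.4 ± 3.90 at 500 nM and was not called, with an interval of -0.25 to 1.32.

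The 3 chains of type VI collagen, a beaded filament that links cells to the surrounding matrix, all fell at 500 nM. COL6A1 (ENSG00000142156, chr21:45981770-46005050, plus strand) had counts of 2079, 2002 and 2004 in DMSO, 1729, 1845 and 1977 at 0.5 nM, 1856, 1721 and 2006 at 5 nM, 1379, 1566 and 1449 at 50 nM and 1265, 1239 and 1214 at 500 nM. COL6A2 (ENSG00000142173, chr21:46098112-46132848, plus strand) had counts of 321, 290.3 and 253 in DMSO, 259, 293 and 293 at 0.5 nM, 256, 226 and 274 at 5 nM, 194, 267 and 244 at 50 nM and 178, 187 and 192 at 500 nM. COL6A3 (ENSG00000163359, chr2:237324003-237414328, minus strand), the longest chain, had counts of 67.3, 55.6 and 73.0 in DMSO, 75.2, 46.1 and 83.1 at 0.5 nM, 82.1, 60.6 and 61.8 at 5 nM, 48.4, 32.7 and 54.2 at 50 nM and 34.7, 39.4 and 30.9 at 500 nM. In all 3 genes the 500 nM libraries lay below every DMSO library, and at 50 nM this held for COL6A1 by a wide margin, for COL6A3 narrowly and for COL6A2 not. At 0.5 nM it held for COL6A1 alone, with 1977 against 2002 at the closest.

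COL6A1 fell by 0.47 at 50 nM and by 0.71 at 500 nM on the log2 scale, with the same SE of 0.060 at both (adjusted p = 3.59e-05 and adjusted p = 8.40e-08). At 500 nM COL6A2 fell by 0.62 (adjusted p = 0.000603) and COL6A3 by 0.88 (adjusted p = 0.00867), and at 50 nM neither was called, with -0.30 ± 0.11 and -0.55 ± 0.22 (adjusted p = 0.153 and adjusted p = 0.187). COL6A1 and COL6A2 lie on the same strand of chromosome 21 with 93061 bases between them, and COL6A3 is on chromosome 2. The ratio of COL6A1 to COL6A2 differed between 500 nM and DMSO by -0.086 on the log2 scale (exact two-sided permutation p = 0.6), and that of COL6A3 to COL6A1 by -0.17 (p = 0.2). The other 2 ratios, of COL5A1 to COL5A2 and of COL4A5 to COL4A6, differed by -1.50 and -0.30 (p = 0.1 and 0.5 in the same exact permutation test). After adjustment over the 5 ratios the lowest value was 0.25, and with 3 libraries a group no ratio could go below 0.1 before it.

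Of the transmembrane collagens, COL13A1 showed a step between 5 and 50 nM. COL13A1 (ENSG00000197467, chr10:69801880-69964275, plus strand) encodes a collagen of the cell surface found at adhesion sites and at the neuromuscular junction. Its counts were 4984, 4954 and 4873 in DMSO, 4885, 4961 and 5301 at 0.5 nM, 4883, 4396 and 5097 at 5 nM, 2987, 3261 and 2897 at 50 nM and 2584, 2620.5 and 2534 at 500 nM. The libraries of DMSO, 0.5 nM and 5 nM overlapped, those at 50 nM lay below all of these, and those at 500 nM lay below all at 50 nM. The log2 change was 0.032 ± 0.054 at 0.5 nM and -0.046 ± 0.054 at 5 nM (adjusted p = 0.850 and adjusted p = 0.791), -0.70 ± 0.054 at 50 nM (adjusted p = 6.96e-08) and -0.94 ± 0.054 at 500 nM (adjusted p = 5.17e-10). The step from 5 to 50 nM was -0.65 ± 0.054 (adjusted p = 2.89e-07), and that from 50 to 500 nM -0.24 ± 0.054 (adjusted p = 0.0216), of which the second was lost with library 2 of 50 nM or library 1, 2 or 3 of 500 nM left out (adjusted p from 0.0633 to 0.147).

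COL17A1, the hemidesmosome collagen that ties epithelial cells to the basement membrane, was not called against DMSO. Its counts were 186, 173 and 198 in DMSO, 218, 204 and 251 at 0.5 nM, 243, 234 and 251 at 5 nM, 148, 183 and 185 at 50 nM and 221, 225 and 186 at 500 nM. The 0.5 nM and the 5 nM libraries were all above those of DMSO and of 50 nM. The step from 5 to 50 nM was a fall of 0.50 on the log2 scale (adjusted p = 0.00782), a call lost with library 1 of 50 nM left out (adjusted p = 0.0572). The differences from DMSO were 0.27, 0.38, -0.11 and 0.18 in the order of the doses, with adjusted p = 0.0707 at 5 nM, where it was called a rise in 4 alternatives (adjusted p from 0.0114 to 0.0498).

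COL18A1 (ENSG00000182871, chr21:45405165-45513720, plus strand), a basement membrane proteoglycan core that releases endostatin, was, like the type IV pair, lower at 0.5 and 5 nM, nearer DMSO at 50 nM and lower at 500 nM. Its counts were 2094, 2037 and 2038 in DMSO, 1719, 1656 and 1760.3 at 0.5 nM, 1738, 1692 and 1960.3 at 5 nM, 1933, 1985 and 1889 at 50 nM and 1574, 1579 and 1570.3 at 500 nM. The libraries at every dose lay below all DMSO libraries, and those at 500 nM, which differed by less than 10 counts, lay below all others. The log2 changes were -0.26, -0.20, -0.087 and -0.39 (adjusted p = 0.0141, adjusted p = 0.0435, adjusted p = 0.406 and adjusted p = 1.59e-05), and the fall from 50 to 500 nM was -0.30 (adjusted p = 0.00237). The call at 0.5 nM was lost with library 1, 2 or 3 of DMSO left out (adjusted p from 0.0594 to 0.0852), and that at 5 nM with TMM scaling and with library 1, 2 or 3 of DMSO, library 1 of 0.5 nM, library 1 or 2 of 5 nM, library 1 or 3 of 50 nM or library 1, 2 or 3 of 500 nM left out (adjusted p from 0.0558 to 0.240). The 0.5 nM call was also lost with only the libraries compared (adjusted p = 0.0976), and the 5 nM call with no filter (adjusted p = 0.0983). Exons of SLC19A1, a folate carrier gene on the opposite strand, overlap 18.5% of its merged exon length, and without a stated strand the reads of the overlap cannot be told apart. SLC19A1 had a mean of 9.17 normalized counts.

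COL15A1 (ENSG00000204291, chr9:98943179-99070792, plus strand), the other multiplexin, had counts of 25.9, 25.3 and 38.6 in DMSO, 29.9, 27.0 and 16.6 at 0.5 nM, 31.0, 25.0 and 30.9 at 5 nM, 22.6, 17.5 and 21.3 at 50 nM and 20.4, 12.1 and 17.7 at 500 nM. All libraries at 500 nM were below all of DMSO, and COL15A1 fell by 0.81 on the log2 scale (adjusted p = 0.0359). This call was lost in DESeq2 and with no filter on the mean (adjusted p = 0.0826 and 0.117). It was also lost with library 1 or 3 of DMSO or library 2 or 3 of 500 nM left out (adjusted p from 0.0526 to 0.172).

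COL7A1 and the fibril-associated chains were not called at any dose, though some were in alternatives. COL7A1 (ENSG00000114270, chr3:48564073-48595329, minus strand), which forms the fibrils that anchor basement membranes to the dermis, had counts of 2359, 2226 and 2591 in DMSO, 2333, 2540.0 and 2114 at 0.5 nM, 2446, 2221 and 2802 at 5 nM, 3103, 2535 and 3197 at 50 nM and 2481, 3119 and 2655 at 500 nM. The groups overlapped, and of the tests on all libraries only the slope passed, at 0.073 ± 0.024 per dose step (adjusted p = 0.0417), a call lost under 10 of 25 alternatives, among them with library 1 or 2 of DMSO, library 1 or 3 of 0.5 nM, library 1 or 3 of 50 nM or library 2 of 500 nM left out (adjusted p from 0.0640 to 0.140). Its difference at 50 nM was 0.30 (adjusted p = 0.0997) and was called in 3 alternatives (adjusted p from 0.0193 to 0.0470). COL12A1, which lies on fibril surfaces in tendon and ligament, had 2327 ± 52.9 in DMSO and 2374 ± 336 at 500 nM, with a difference of 0.020 and an interval of -0.27 to 0.31. At 5 nM its difference was 0.17 (adjusted p = 0.670), called when only the libraries compared were fitted (adjusted p = 0.0331). The 0.5 nM libraries of COL12A1 ranged from 1699 in replicate 2 to 2830 in replicate 1, the widest spread of the chains with high counts.

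COL9A2, a chain of cartilage type IX collagen, had counts of 89.4, 93.1 and 92.3 in DMSO, 62.8, 64.1 and 52.8 at 0.5 nM, 69.3, 75.8 and 80.3 at 5 nM, 63.4, 100.4 and 67.0 at 50 nM and 92.7, 104 and 93.6 at 500 nM. All 0.5 nM and 5 nM libraries were below those of DMSO, with differences of -0.61 ± 0.15 (adjusted p = 0.0615) and -0.28 ± 0.15 (adjusted p = 0.461). The fall at 0.5 nM was called without 50 nM replicate 2 (adjusted p = 0.0167), and that at 50 nM (adjusted p = 0.375) without 50 nM replicate 2 (adjusted p = 0.0367). At 500 nM the groups overlapped, with a difference of 0.078 (adjusted p = 0.794). COL16A1, another fibril-associated chain, had 34.6 ± 6.47 in DMSO and 41.5 ± 5.48 at 500 nM (adjusted p = 0.542).

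**Figure D4:**
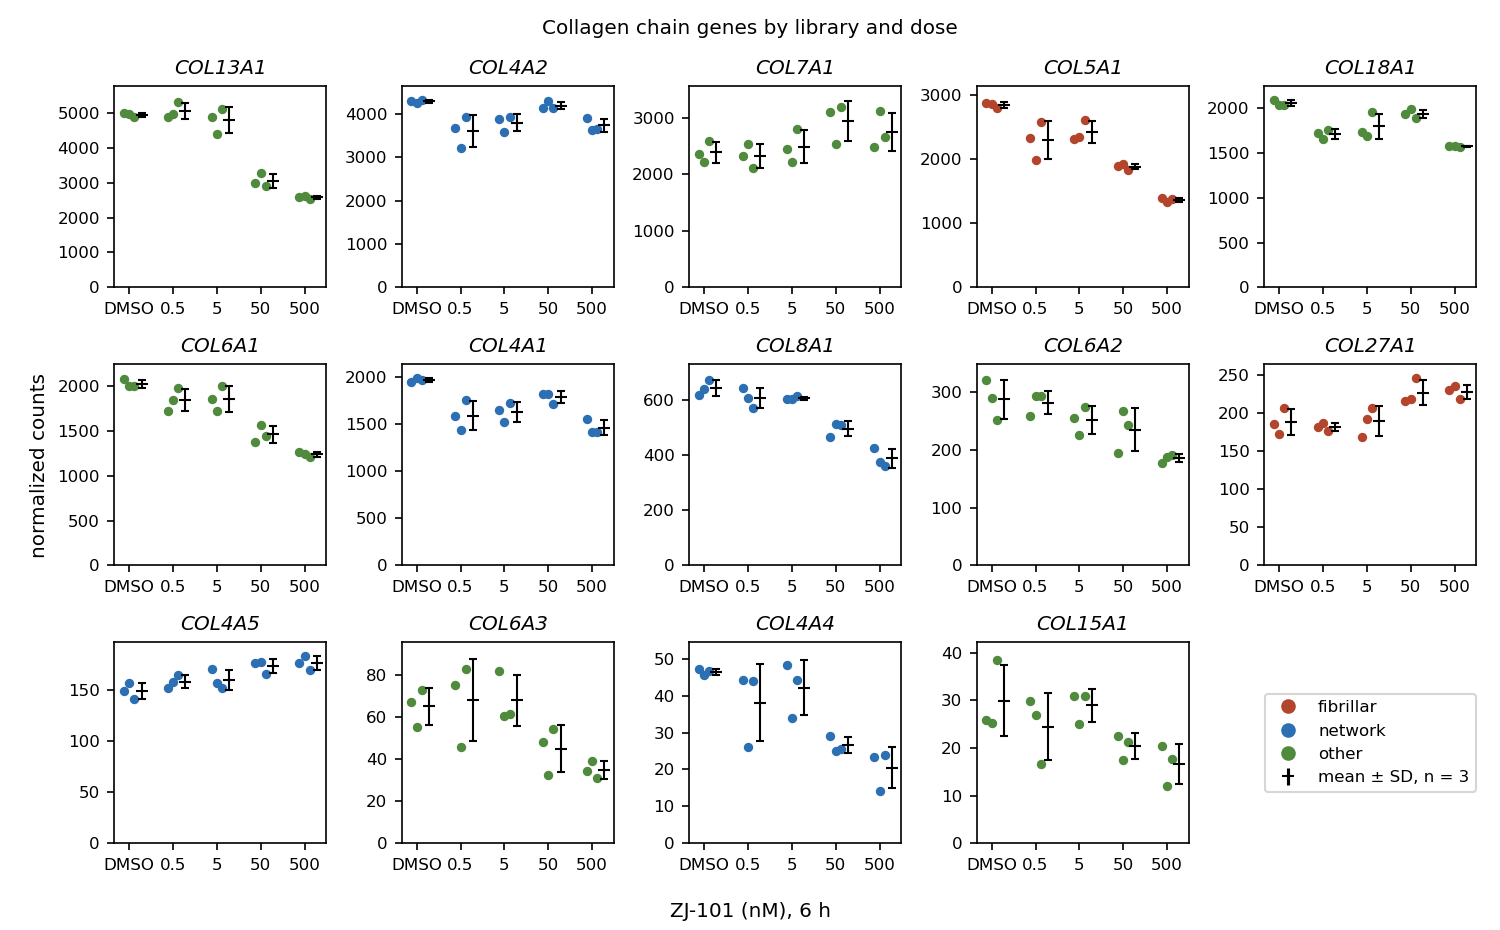
Normalized counts (y axis, from 0) in each of the 15 libraries by dose of ZJ-101 for the 14 collagen chain genes called at a dose or by the slope, with bars for the mean and SD of 3 libraries. COL13A1 is level up to 5 nM and lower from 50 nM, COL5A1 goes down to 1362 at 500 nM, and COL4A1, COL4A2 and COL18A1 are lower at 0.5 nM and nearer DMSO at 50 nM.

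Between neighbouring doses, 0 chains were called from 0.5 to 5 nM by limma, by edgeR and by DESeq2, where 0.0295% of all genes rose and 0.0885% fell in limma and 1 chain had an unadjusted p under 0.05. From 5 to 50 nM 5 chains fell and 0 rose, namely COL13A1, COL17A1, COL5A1, COL6A1 and COL8A1, where 2.39% of all genes fell and 2.62% rose, and 3 were called without 50 nM replicate 1. From 50 to 500 nM 6 fell and 0 rose, namely COL5A1, COL8A1, COL18A1, COL4A1, COL13A1 and COL6A1, where 1.80% of all genes fell and 0.479% rose, and 2 were called without 50 nM replicate 2 or 500 nM replicate 3 and 3 without 500 nM replicate 2. The calls of COL6A1, COL4A1, COL13A1 and COL8A1 for this step were lost in 10, 4, 4 and 2 of 25 alternatives. Those of COL5A1 and COL18A1 were lost in 0. Among all genes 227 rose and 203 fell from 5 to 50 nM without 50 nM replicate 1, in place of 355 and 324. From 50 to 500 nM 65 rose and 244 fell with all libraries. Without 50 nM replicate 2 these were 31 and 108, without 500 nM replicate 3 26 and 117, and without 500 nM replicate 2 35 and 133. The slope over the dose ranks, with DMSO as the rank below 0.5 nM, called 3 chains upward (COL27A1, COL4A5 and COL7A1) and 10 downward. The 10 were COL5A1, COL4A1, COL4A4, COL8A1, COL6A1, COL6A2, COL6A3, COL13A1, COL15A1 and COL18A1. Of all genes 8.23% went up and 9.33% down by this slope. It called 8 chains in all without 500 nM replicate 2. Among all genes it then called 814 up and 969 down, in place of 1116 and 1265. Fitted without the DMSO libraries, the slope lost COL4A1, COL18A1, COL4A5, COL15A1 and COL7A1 (adjusted p = 0.671, 0.588, 0.138, 0.117 and 0.0705). That fit gained COL9A2 as a rise (adjusted p = 0.00935). Over the alternatives the downward slope calls of COL18A1, COL4A1 and COL15A1 were lost in 11 of 25, 8 of 25 and 6 of 24. For COL18A1 and COL4A1 the loss occurred with any single library of DMSO or of 500 nM left out.

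The summed counts of all 44 chains show the weight of these changes in the collagen RNA as a whole. The sums were 24901, 24602 and 24879.6 in DMSO, 23005, 21223 and 23822 at 0.5 nM, 23461, 21769.7 and 24799 at 5 nM, 21632, 21286 and 21334 at 50 nM and 19202, 18704 and 18242 at 500 nM. The libraries at 0.5, 50 and 500 nM lay below all DMSO libraries, those at 5 nM overlapped with them, and the mean at 500 nM was 75.5% of that in DMSO. The fibrillar sum, mostly COL5A1, was at 55.7% of DMSO at 500 nM (3251 ± 14.1 against 1811 ± 40.8, SD, n = 3), the network sum at 81.6% (7095 ± 49.0 against 5788 ± 269.7) and the sum of the other types at 76.9% (14448 ± 150.4 against 11117 ± 286). At 50 nM the same 3 sums were at 71.5%, 94.0% and 86.0% of DMSO.

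**Figure D5:**
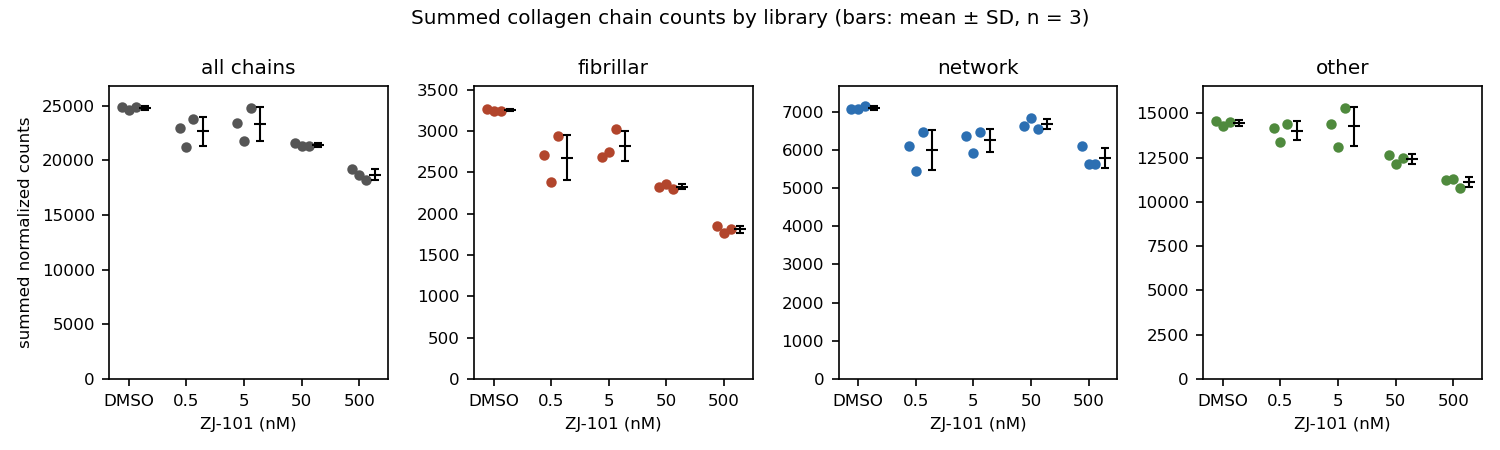
Summed normalized counts (y axis, from 0) of all 44 collagen chains and of the fibrillar, network and other chains in each library by dose, with bars for the mean and SD of 3 libraries. The sum of all chains at 500 nM is 75.5% of that in DMSO, and the network sum has its lowest values at 0.5 and 500 nM.

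Of 53 genes that hydroxylate, fold, export, cross-link, bind or cleave collagen, 41 were tested, and at 500 nM 24 fell and 4 rose, with a median log2 change of -0.23, beside the 10.1% and 7.69% of all genes given above. Of the 14 tested genes of chain hydroxylation and glycosylation 10 fell and 0 rose. PLOD2, the lysyl hydroxylase of the telopeptides, fell from 5979 ± 66.6 to 3445 ± 206 (-0.80, adjusted p = 2.01e-09), and P4HA1, a prolyl hydroxylase subunit, fell from 2371 ± 9.64 to 1803 ± 67.8 (-0.40, adjusted p = 8.58e-05). Of the 9 chaperone and export genes 3 rose and 2 fell. MIA2, a cargo receptor for large secreted molecules at the exit sites of the endoplasmic reticulum, rose by 0.32 (adjusted p = 0.000639), and KLHL12, a ubiquitin ligase adaptor for large COPII carriers, rose by 0.26 (adjusted p = 0.00650). The collagen chaperone SERPINH1 had 4936 ± 120.3 in DMSO and 4697 ± 101 at 500 nM and was not called (-0.072, interval -0.15 to 0.010, adjusted p = 0.239).

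Of the 10 tested genes of propeptide removal and cross-linking 6 fell and 1 rose. LOXL1, a lysyl oxidase, fell from 607 ± 14.4 to 312 ± 20.4 (-0.96, adjusted p = 1.87e-09), and ADAMTS3, a procollagen N-proteinase, fell from 87.0 ± 3.77 to 40.1 ± 3.89 (-1.10, adjusted p = 5.04e-06). TGM2, a transglutaminase, rose by 0.22 (adjusted p = 0.00225). Of the 5 tested receptors 4 fell, and of the 3 tested proteases 2 fell, with MMP14, a membrane-bound collagenase, going from 10135 ± 311 to 3923 ± 22.1 (-1.37, adjusted p = 8.28e-13). At 0.5, 5 and 50 nM 1, 1 and 3 of the 41 genes rose, where 0.251%, 0.465% and 2.29% of all genes did, and 3, 4 and 9 fell, where 0.922%, 1.71% and 3.71% of all genes did.

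The libraries held 12415519 to 15284762 reads on genes, and mitochondrial genes took 0.889% to 2.06% of them. All 5 genes listed as markers of mesenchymal-like breast cancer lines were expressed. At 500 nM VIM, CD44, SNAI2, ZEB1 and EGFR stood at 94.8%, 76.8%, 79.7%, 94.8% and 164% of their DMSO means. Of 7 luminal epithelial or receptor genes 6 were expressed too, with KRT8, KRT18, ERBB2 and EPCAM averaging 11822, 4427, 1211 and 290 counts, and ESR1, the oestrogen receptor gene, averaged 0.744. CDH1 and PGR averaged 147 and 13.7 counts. At 0.5, 5, 50 and 500 nM CDH1 stood at 57.8%, 63.8%, 86.0% and 68.7% of its DMSO mean. KRT8, KRT18, ERBB2, EPCAM and PGR stood at 94.8%, 102%, 98.3%, 94.3% and 111% at 500 nM. The part of these marker shifts in the results was not tested. Of 6 fibroblast markers only PDGFRB reached a mean of 10, and the list summed to 51.6 to 67.0 counts at 50 nM and 36.4 to 69.3 at 500 nM, both overlapping with DMSO, with DCN, PDGFRA, FAP and THY1 averaging under 1 count. Of 3 endothelial markers only PECAM1 reached 10, with a list sum of 240 to 293 in DMSO and 204 to 230 at 500 nM and VWF under 1 count, and the part of this shift in the results was not tested. Of 3 immune markers 0 reached 10, and their sum was at most 3.53 in any library.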

How the data were processed

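Poly-A RNA of 15 libraries was sequenced with paired reads. Per the labels and the methods of the study, the authors used HISAT2 to map reads to hg38 and htseq-count to assign them to genes, then applied DESeq2 size factors, so that the deposited signal values are normalized counts. Strand setting and tool versions are not given in the sources used here.

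Values were whole reads times 1 step per library (100% of values within 0.001 of a whole read), with size factors of 0.916 to 1.13. Chi-square over its degrees of freedom was 1.96 to 15.1 between replicates, so no library was a duplicate, and replicate 2 of 0.5 nM stood apart. 1 line without a gene was left out.

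limma 3.58.1 (R 4.3.3) with a variance trend was fitted to log2(normalized count + 1), so that folds of low genes are understated, on 13561 genes, those averaging 10 or more. The 5 groups entered 1 fit (10 residual degrees of freedom), with Benjamini-Hochberg adjustment over all genes and a threshold of 0.05. The slope was fitted on the dose rank, with DMSO as the rank below 0.5 nM. Exact permutation tests compared chain ratios. Alternatives used edgeR 4.0.16 and DESeq2 1.42.0 on the recovered reads (edgeR called 1067 genes up and 1365 down at 500 nM), other pseudocounts (0.5 and 5), filters (none, and a mean of 50) and scalings, a replicate block and left-out libraries. Scripts were checked on simulated data. The members, the gene lists and the tests were chosen with earlier results of these data known. All members with a mean of at least 10 are named, and of the pathway list the 3 largest rises and falls among those called at 500 nM plus SERPINH1, P4HA1 and PLOD2. Positions and merged exons are from GENCODE 44, which held 38133 of 59608 symbols and 44 of 44 members. Intervals and floors cover counting or replicate error only.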

Additional observations from a re-analysis of the deposited data

How the results depend on the processing

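The counts of called chains at 500 nM stayed within 1.5 times the reported 12 under every alternative tried, with 9 to 12 when 1 library was left out, and no change of sign was found for a called chain under any alternative. At 500 nM COL5A1, COL13A1, COL6A1, COL6A2, COL6A3, COL8A1, COL4A1, COL4A4 and COL18A1 stayed called under each alternative that tested them, whereas COL27A1 was lost in 12 of 25, COL15A1 in 6 of 24 and COL4A2 in 5 of 25. The 4 calls at 0.5 nM became 0 when only the libraries compared were fitted, and ranged from 0 to 5 with 1 library left out. The 2 calls at 5 nM became 1 with TMM scaling, 0 with no filter, 3 in DESeq2 and 6 with only the libraries compared, of which 2 were rises, and ranged from 0 to 5. The 4 calls at 50 nM became 7 with only the libraries compared, 1 of them a rise, and ranged from 4 to 6. The calls among all genes moved as well. With only the libraries compared they went from 34 up and 125 down to 6 and 15 at 0.5 nM. At 5 nM they went from 63 and 232 to 315 and 531, and at 50 nM from 311 and 503 to 467 and 653. Also at 5 nM, they were 69 and 209 with TMM scaling, 44 and 161 with no filter and 83 and 269 in DESeq2. With 1 library left out, the slope called 8 to 13 chains, the step from 5 to 50 nM 3 to 6, the step from 50 to 500 nM 2 to 7, and the pathway list 23 to 30 genes at 500 nM. The log2 ratio differences at 500 nM ranged from -0.24 to -0.21 for COL4A1 to COL4A2, from -0.45 to -0.021 for COL4A5 to COL4A6, from -1.83 to -1.32 for COL5A1 to COL5A2, from -0.15 to -0.0043 for COL6A1 to COL6A2 and from -0.27 to -0.076 for COL6A3 to COL6A1. The cause of these movements was not tested. DMSO libraries did not deviate together with the libraries of the same number at a dose (correlations of -0.0855 to 0.0729, 0 of 12 pairs over 0.1). Pairs of treated libraries from different doses were not examined, so a pairing among these was not tested. A fit with the replicate number as a block called 5, 2, 5 and 12 chains at 0.5, 5, 50 and 500 nM, 11 by the slope, 5 and 6 for the 2 upper steps and 28 pathway genes, gaining COL9A2 at 0.5 nM (adjusted p = 0.0487) and COL4A4 at 50 nM (0.0200) and losing COL7A1 and COL18A1 in the slope. Among all genes this fit called 40 up and 123 down, 73 and 242, 343 and 524, and 1116 and 1390 at the 4 doses. Of the values of single genes under the alternatives, 3669 kept their side of the threshold, 135 lost it and 31 gained it. Chains under about 30 counts a library, such as COL5A2, COL4A6 and COL15A1, have wide intervals at this depth.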
